A study of Rattus norvegicus with 10 samples.

Results

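The genes described here encode the 7 subunits of the NMDA receptor of the rat, Grin1, Grin2a, Grin2b, Grin2c, Grin2d, Grin3a and Grin3b. They were taken by gene symbol from a matrix of 32041 transcript rows, one row per gene, and where a gene had several rows the one with the highest mean count was used. All 7 had enough counts to be tested, among 22447 tested rows. Messenger RNA had been sequenced in 10 male rats of the outbred Sprague-Dawley strain, from left-sided tissue labelled dorsal hippocampus that contained the CA3 field and the dentate gyrus. All rats had electrodes in the left lateral amygdala. After 2 weeks of recovery, 5 of them (rats 6 to 10, stimulated) received pulses of 400 µA at 60 Hz for 30 min, prolonged by 10 min where needed, to evoke status epilepticus, a long seizure that was stopped with 20 mg/kg diazepam and further doses where needed, while 5 age-matched rats (rats 1 to 5, sham) received no current. Tissue was collected 3 months later. Per the study's methods every stimulated rat had spontaneous seizures by then, so the comparison contrasts chronic epilepsy with its surgical control, and stimulation and diazepam cannot be told apart in it.

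The NMDA receptor is an ion channel of 4 subunits that opens when glutamate and a co-agonist, glycine or D-serine, are bound and the membrane is depolarized, and that lets calcium into the neuron. Grin1 encodes the obligatory GluN1 subunit, which binds the co-agonist, and the 4 Grin2 genes encode the glutamate-binding GluN2 subunits, which set how long the channel stays open and how strongly magnesium blocks it. Grin3a and Grin3b encode glycine-binding GluN3 subunits, which lower the calcium flow and the magnesium block. In the forebrain GluN2A and GluN2B are the main GluN2 subunits, and the share of GluN2A grows during postnatal maturation.

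Aligned counts ranged from 13552309 to 24086059 per rat. Single libraries stood apart in other measures. Reads that the authors could not align took 41.4, 42.9 and 45.1% of all reads in stimulated rats 8, 9 and 10, and 32.0 to 37.1% in the other 7 rats. The activity marker Fos was counted at 106, 50.3 and 61.7 CPM (counts relative to library size, scaled between libraries) in stimulated rats 7, 9 and 10 and at 3.26 to 5.61 CPM in the other 7 rats. Astrocyte markers summed to 8347 and 7711 CPM in stimulated rats 7 and 10, against 3423 to 4410 CPM in the other 8 rats. Gfap, the filament gene of reactive astrocytes, alone made up 6469 and 5396 CPM of these sums, and the astrocyte genes Aldh1l1, Gjb6 and Aldoc were at their lowest of the 10 rats in rat 7, at 16.4, 15.1 and 742 CPM. In bulk tissue, fewer cells of a type and less RNA per cell cannot be told apart. Neuronal markers such as Snap25 and Rbfox3, and the granule cell genes Prox1 and C1ql2, were counted, as was Fibcd1, a marker of the neighbouring CA1 field.

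It was asked whether the subunit genes differed in expression between stimulated and sham rats. None did at the threshold used. Of the 7 genes, 0 had an adjusted p-value under 0.05 in the quasi-likelihood test of edgeR, where 0% of the 22447 tested rows passed. At an unadjusted p-value under 0.05 the count was again 0 of 7, where 9.86% of all rows passed (6.7% higher and 3.16% lower in stimulated rats). DESeq2, the likelihood ratio test and limma-voom also gave 0 of 7 at either threshold. Across the alternatives other than leaving out single rats, 0 to 119 of all rows passed adjustment. The same fits had 2034 to 2575 rows at an unadjusted p-value under 0.05. Sham and stimulated rats overlapped in the level of each of the 7 genes, where 1.29% of all rows did not overlap. Log2 fold changes of stimulated over sham rats ran from -0.19 to 0.22, 3 positive and 4 negative, with a median of 0.00 for the subunits (-0.0036) beside 0.01 (0.0118) for all rows. The sign was not a stable property of most of them: Grin1, Grin2a, Grin2c and Grin3b changed sign under at least 1 other scaling or test, while Grin2b was positive in all 23 alternatives tried.

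**Figure D1:**
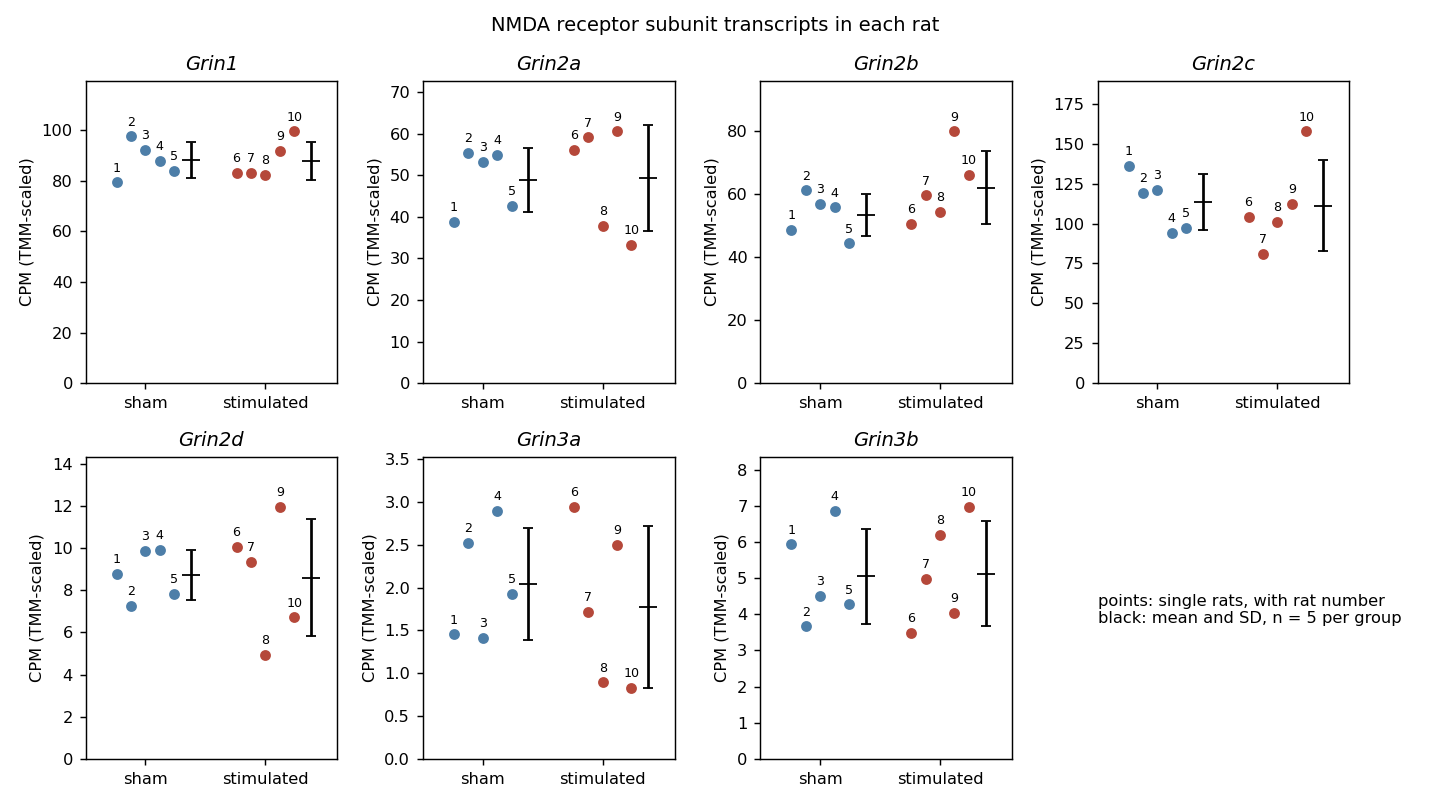
Level of each NMDA receptor subunit transcript in each rat, in CPM on a linear axis from 0; points are single rats marked by rat number, blue for sham and red for stimulated, and black bars give the mean and SD of 5 rats. The groups overlap in each panel, and stimulated rats 8 and 10 are the lowest 2 rats for Grin2a, Grin2d and Grin3a.

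The obligatory subunit gene Grin1 (NM_017010) varied least among the 7 genes. It was counted at 79.4, 97.5, 92.1, 87.9 and 83.9 CPM in sham rats 1 to 5 and at 83.1, 83.2, 82.2, 91.7 and 99.5 CPM in stimulated rats 6 to 10. The sham mean was 88.2 ± 7.04 CPM and the stimulated mean 87.9 ± 7.53 CPM (SD, n = 5 each), a fold of 0.998 (95% interval 0.875 to 1.14). The log2 fold change was -0.00 (-0.0036, SE 0.0881, adjusted p = 0.994 in edgeR's quasi-likelihood test). The 5 stimulated rats spread over nearly the same range as the 5 sham rats. Grin1 is spliced into several variants, and 7 rows carried its symbol, with mean counts of 1523 to 1711 per rat and log2 fold changes of -0.02 to 0.05. How reads shared by such variants were counted was not stated, so these rows are not separate observations.

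Grin2b (NM_012574), which encodes the GluN2B subunit of long open time, had the highest log2 fold change of the family. Its level was 48.6, 61.1, 56.7, 55.7 and 44.3 CPM in sham rats 1 to 5. In stimulated rats 6 to 10 it was 50.6, 59.5, 54.2, 79.8 and 65.9 CPM, so that only rats 9 and 10 exceeded every sham rat. The means were 53.3 ± 6.74 and 62.0 ± 11.5 CPM (SD, n = 5 each), a fold of 1.16 (95% interval 0.959 to 1.41), and the log2 fold change of 0.22 (SE 0.131) had an unadjusted p-value of 0.115 and an adjusted p-value of 0.593 in edgeR's quasi-likelihood test. Without stimulated rat 9 the log2 fold change was 0.11. It was 0.03 without rats 8, 9 and 10, the libraries with the most unaligned reads, which leaves stimulated rats 6 and 7. That choice removes both rats above the sham range, so the value of 0.03 follows in part from it. Rats 9 and 10 were also among the 3 rats with high Fos, but rat 7, the rat with the highest Fos, had 59.5 CPM of Grin2b, within the sham range. The part of unaligned reads and of Fos in these values was not tested.

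Grin2a (NM_012573) encodes GluN2A, the subunit of fast channel closure that dominates in the mature hippocampus. The group means lay close together, at 49.0 ± 7.70 CPM (sham) and 49.4 ± 12.8 CPM (stimulated; SD, n = 5 each). The log2 fold change was 0.01 (SE 0.172; adjusted p = 0.989 in edgeR's quasi-likelihood test). The single rats did not lie near that mean. Sham rats 1 to 5 had 38.7, 55.4, 53.1, 54.9 and 42.7 CPM. Stimulated rats 6, 7 and 9 had 56.1, 59.1 and 60.5 CPM, above every sham rat, and stimulated rats 8 and 10 had 37.7 and 33.3 CPM, below every sham rat. The mean of the stimulated group thus averaged 3 high and 2 low rats. The 95% interval of the fold was 0.781 to 1.30.

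Because GluN2A and GluN2B share the same sites in the receptor, the balance of their transcripts was examined within each library, where no scaling enters. For each Grin2b count there were 0.797, 0.906, 0.937, 0.984 and 0.964 Grin2a counts in sham rats 1 to 5. Stimulated rats 6 to 10 had 1.11, 0.993, 0.696, 0.758 and 0.505. Rats 6 and 7 were thus above all sham rats and rats 8, 9 and 10 below all of them. On the log2 scale the sham mean of the ratio was -0.13 ± 0.12 and the stimulated mean -0.35 ± 0.447 (SD, n = 5 each). Their difference, -0.23, was within what the rats' own spread gives (two-sided exact permutation test, p = 0.341, where 0.00794 is the smallest value that 252 assignments allow). The difference was -0.07 without stimulated rat 10.

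The 3 rats with the lowest ratio were the same 3 rats whose libraries had the most unaligned reads. Counts of rats 8, 9 and 10 held 591 Grin2a beside 849 Grin2b reads, 1187 beside 1565, and 646 beside 1278. In the 7 rats with under 40% of reads unaligned, all of the sham group and stimulated rats 6 and 7, the difference of the log2 ratio was 0.20. Its sign follows from the rats that remained, since rats 6 and 7 were those above all sham rats, so it is given with no test. No sham rat had a share of unaligned reads above 37.1%, so that within this design a low ratio, a high unaligned share and stimulation cannot be told apart in these 3 rats, and the part of the unaligned reads was not tested.

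**Figure D2:**
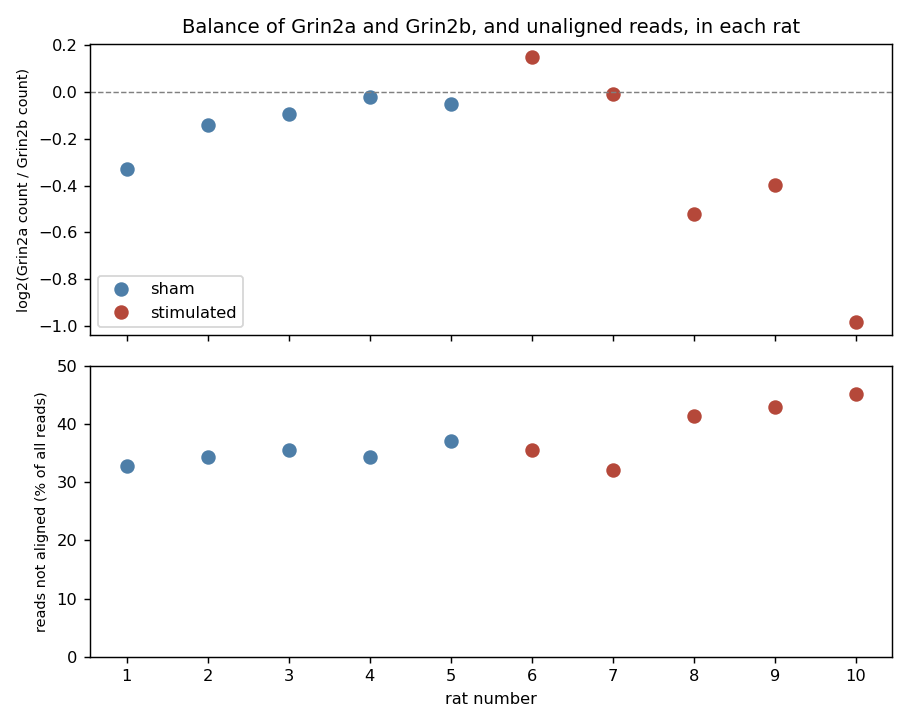
Upper panel, log2 ratio of Grin2a to Grin2b counts in each rat, with 0 (equal counts) as a dashed line; lower panel, percentage of all reads that were not aligned in the same rat. Sham rats are blue and stimulated rats red, and rats 8, 9 and 10 have both the lowest ratios and the highest unaligned shares (41.4 to 45.1%).

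Grin2c (NM_012575) encodes GluN2C, best known from cerebellar granule cells and also found in glia, and its channels are weakly blocked by magnesium. It was counted at 136, 119, 121, 94.3 and 97.1 CPM in sham rats 1 to 5 and at 104, 81.0, 101, 112 and 158 CPM in stimulated rats 6 to 10. Rat 10 was above and rat 7 below all sham rats. Group means were 114 ± 17.6 and 111 ± 28.4 CPM (SD, n = 5 each). This is a fold of 0.98 (95% interval 0.774 to 1.24) and, on the log2 scale, -0.03 (SE 0.158, adjusted p = 0.967 in edgeR's quasi-likelihood test). Gabra6, the defining receptor subunit gene of cerebellar granule cells, had 20 counts in all 10 rats together. Other genes listed for these cells, Neurod1, Zic1 and Cbln1, had means of 443, 55.8 and 119.5 counts per rat, and Cbln1 reached 520 counts in a single rat. Whether such cells were in the tissue was not tested. Rats 7 and 10, the lowest and the highest for Grin2c, both had high Gfap and had the lowest levels of the astrocyte gene Aldh1l1 among the 10 rats, 16.4 and 29.3 CPM. Other genes of the astrocyte list set rats 7 and 10 apart, Gjb6 at 15.1 and 44.6 CPM and Aldoc at 742 and 1185 CPM. Aqp4 (162 and 192 CPM), Slc1a2 (193 and 177 CPM) and Slc1a3 (749 and 687 CPM) lay nearer to each other. The part of astrocytes in the values of Grin2c was not tested.

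Grin2d (NM_022797) encodes GluN2D, a subunit of slow kinetics that in the adult forebrain is found mainly in interneurons. Sham rats 1 to 5 had 8.78, 7.25, 9.85, 9.92 and 7.84 CPM, and stimulated rats 6 to 10 had 10.0, 9.33, 4.92, 11.9 and 6.71 CPM. Rats 8 and 10 fell below and rats 6 and 9 above the sham range. The log2 fold change was -0.02 (SE 0.21, adjusted p = 0.983 in edgeR's quasi-likelihood test), with a 95% interval of the fold from 0.72 to 1.35. Markers of interneurons summed to 337 to 384 CPM per sham rat and 298 to 394 CPM per stimulated rat. Of the 6 tested genes of that list 0 had an unadjusted p-value under 0.05, beside 9.86% of all rows. In rat 10, low in Grin2d, the genes of this list moved apart. Sst, the somatostatin gene, was at 130 CPM against 38.6 to 47.5 CPM in sham rats, and Slc32a1 was at its highest of the 10 rats, at 74.3 CPM. Gad1, Pvalb and Lhx6 were at their lowest of the 10 rats, at 114, 33.0 and 13.6 CPM, and Gad2 was within the sham range, at 28.7 CPM. In rat 8, the lowest in Grin2d, Sst and Gad2 were at their lowest of the 10 rats, at 25.4 and 23.2 CPM. Its Gad1, Pvalb, Lhx6 and Slc32a1 were at 144, 46.9, 17.1 and 49.2 CPM. The part of interneurons in the values of Grin2d was not tested.

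The GluN3 genes had few counts. Grin3a (NM_138546), whose subunit is most abundant in the young brain, had 25, 33, 26, 70 and 46 counts in sham rats 1 to 5 and 65, 37, 14, 49 and 16 counts in stimulated rats 6 to 10. Scaled to library size, these were 1.45, 2.52, 1.42, 2.89 and 1.93 CPM in rats 1 to 5 and 2.94, 1.72, 0.894, 2.50 and 0.826 CPM in rats 6 to 10. Rats 8 and 10 were again the lowest. The log2 fold change of -0.19 (SE 0.36, adjusted p = 0.899 in edgeR's quasi-likelihood test) had an interval of the fold from 0.513 to 1.50, the widest of the family. It was -0.46 without stimulated rat 6 and -0.01 without stimulated rat 10. A second row of Grin3a (NM_001198583), with a mean of 37.6 counts, gave a log2 fold change of -0.17.

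Grin3b (NM_133308), best known from motor neurons, was counted at 5.93, 3.66, 4.52, 6.86 and 4.27 CPM in rats 1 to 5 of the sham group and at 3.48, 4.97, 6.19, 4.03 and 6.97 CPM in rats 6 to 10 of the stimulated group, with 48 to 166 counts per rat. The means were 5.05 ± 1.31 and 5.13 ± 1.45 CPM (SD, n = 5 each). Its log2 fold change was 0.01 (SE 0.228, adjusted p = 0.991 in edgeR's quasi-likelihood test), with a 95% interval of the fold from 0.718 to 1.42. Rats 8 and 10, low for Grin3a, were among the high rats for Grin3b.

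**Figure D3:**
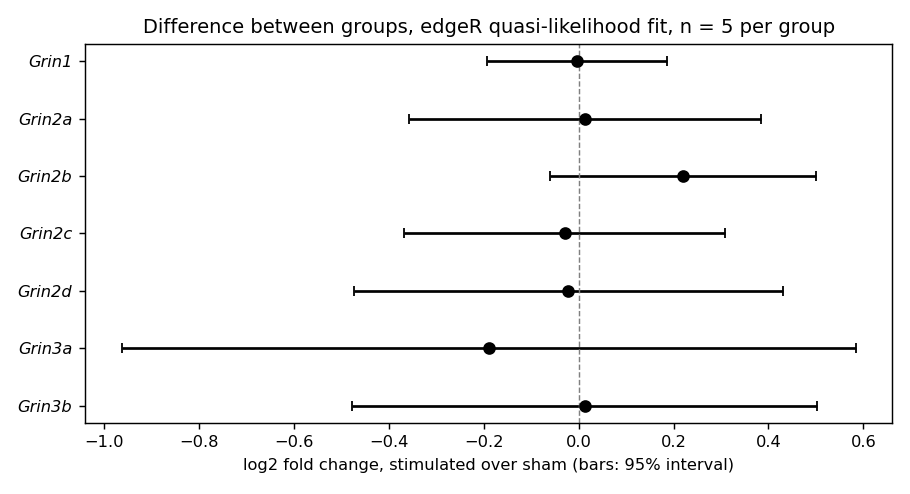
Log2 fold change of stimulated over sham rats for each subunit gene (points) with its 95% interval (bars) from the edgeR quasi-likelihood fit, 5 rats per group; the dashed line marks no difference. Each interval crosses 0, from the narrowest for Grin1 (-0.19 to 0.19) to the widest for Grin3a (-0.96 to 0.58).

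The spread among stimulated rats was wider than among sham rats for 7 of 7 genes. The SD as a percentage of the mean was 15.7% among sham and 26.0% among stimulated rats for Grin2a, 13.6 and 32.4% for Grin2d, 32.0 and 53.2% for Grin3a, and 7.99 and 8.56% for Grin1. Over all tested rows the SD was wider among stimulated rats for 69.3%, so a wider spread was the common case and not one of the subunits alone. The difference in spread was not tested. Counts of the 7 genes together came to 282 to 346 CPM per sham rat and 287 to 371 CPM per stimulated rat. Grin2a made up 8.98% of these counts in rat 10 and 19.8% in rat 7, its extremes over all rats. Levels of different subunit genes were not ranked, since counts grow with transcript length and lengths were not used here.

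Of the 21 pairs of subunit genes, none was correlated across the 10 rats after adjustment over the pairs. The closest were Grin2a and Grin3a (Pearson's r = 0.81, permutation p = 0.0063, adjusted p = 0.133, Spearman's rho = 0.71, permutation p = 0.0272, adjusted p = 0.19, n = 10). Grin2a and Grin2d followed (r = 0.72, permutation p = 0.0153, adjusted p = 0.161, rho = 0.76, permutation p = 0.016, adjusted p = 0.19, n = 10). Both relations rested in part on rats 8 and 10, without which r was 0.52 and 0.48. With each rat centred on the mean of its group, r was 0.83 for Grin2a with Grin3a and 0.72 for Grin2a with Grin2d.

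The genes whose log2 CPM ran most in parallel with each subunit over the 10 rats were named from 9666 rows of at least 5 CPM, as a description of likeness with no test, since the highest of so many values is high by selection. For Grin2b they were Slc12a4, Fem1a and Lingo3, with r from 0.93 to 0.97. Slc12a4 encodes a potassium-chloride cotransporter. For Grin2a they were Clstn2, which encodes a postsynaptic calsyntenin, Ankrd52 and Sgtb, with r from 0.92 to 0.94, and for Grin2d Plekhb2, Zdhhc21 and Rimklb, with r from 0.93 to 0.94. Grin1 was closest to Sh2b1, Epb41l4a and Zfp598 (r from 0.89 to 0.93) and Grin2c to Tmco4, Fxyd3 and Repin1 (r from 0.92 to 0.93). Grin3a was closest to Gsk3b, Caln1 and Nup155 (r from 0.89 to 0.90) and Grin3b to Dnlz, Stk35 and Dhx37 (r from 0.86 to 0.88). None of these 21 rows had an adjusted p-value under 0.05 between the groups.

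Genes that act with the receptor were examined by role, from a list of 57 of which 52 had a tested row. At an adjusted p-value under 0.05 the count was 0 of 52, and 5 of 52 (9.62%) had an unadjusted p-value under 0.05, 4 higher and 1 lower, against 9.86% of all rows, of which 6.7% were higher and 3.16% lower. This share is that of the background. Leaving out single rats moved the count of 5 to between 2 (without sham rat 2 or stimulated rat 7) and 11 (without stimulated rat 8), with 3 without sham rat 3, sham rat 5 or stimulated rat 10 and 9 without stimulated rat 6. The share over all rows moved in the same fits, to 7.95% without sham rat 2, 7.37% without rat 7, 13.5% without rat 8 and 14.0% without rat 6, where the partner genes had 3.85, 3.85, 21.2 and 17.3%. It was 8.28% without sham rat 3, 8.12% without sham rat 5 and 9.20% without rat 10, with 5.77% of the partner genes in each. Of the 5 genes, Dapk1 and Sp1 had an unadjusted p-value under 0.05 whichever rat was left out, and Dlg4, Aadat and Rest did not. The groups did not overlap for 1 of 52 (1.92%), against 1.29% of all rows. The median log2 fold change was -0.03.

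Among 11 synaptic scaffold genes, which anchor the receptor at the postsynaptic density, 1 had an unadjusted p-value under 0.05, beside 9.86% of all rows. This was Dlg4, which encodes PSD-95 and was the most counted, with a sham mean of 613 ± 26.4 CPM and a stimulated mean of 693 ± 63.6 CPM (SD, n = 5 each, log2 fold change 0.18, SE 0.0763, unadjusted p = 0.0379 and adjusted p = 0.472 in edgeR's quasi-likelihood test). Its levels in stimulated rats 6 to 10 were 623, 765, 660, 661 and 755 CPM, 4 of them above the highest sham rat at 654 CPM. Dlg3, which encodes SAP102, had the lowest log2 fold change of the scaffolds, -0.12. The 9 tested genes of trafficking and auxiliary proteins ranged from -0.22 for Apba1, an adaptor of transport vesicles, to 0.04 for Nefl, a neurofilament that was also the most counted, and 0 of 9 had an unadjusted p-value under 0.05.

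Of 10 tested kinases and phosphatases that modify the receptor, 1 had an unadjusted p-value under 0.05, beside 9.86% of all rows. Dapk1, a death-associated kinase that phosphorylates GluN2B, had a sham mean of 84.4 ± 10.5 CPM and a stimulated mean of 62.1 ± 11.4 CPM (SD, n = 5 each). Its log2 fold change was -0.44 (SE 0.128, unadjusted p = 0.00378 and adjusted p = 0.38 in edgeR's quasi-likelihood test). The study listed this row as downregulated in this model, with an adjusted p-value under 0.05 in its own edgeR test. Sham rats 1 to 5 had 74.2, 80.9, 102, 83.6 and 81.3 CPM and stimulated rats 6 to 10 had 74.9, 50.8, 73.8, 54.2 and 56.6 CPM. All but rat 6 were below every sham rat, and the lowest 3 were the rats with high Fos. Camk2a, the calcium-dependent kinase that binds GluN2B and the most counted of the list, had a log2 fold change of -0.16, and the tyrosine kinase Fyn had the highest, 0.26. The value of Fyn was 0.11 without stimulated rat 7, which had 186 CPM, and that of Camk2a was -0.10 without rat 10.

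Kynurenate is a natural blocker of the co-agonist site. Genes of the supply of co-agonists and of kynurenate gave 1 of 10 at an unadjusted p-value under 0.05, beside 9.86% of all rows. Aadat, which makes kynurenate, averaged 8.53 ± 1.82 CPM (sham) and 11.7 ± 3.35 CPM (stimulated, SD, n = 5 each; log2 fold change 0.46, SE 0.211, unadjusted p = 0.0483 and adjusted p = 0.501 in edgeR's quasi-likelihood test), with 3 of 5 stimulated rats above all sham rats. The other kynurenate genes listed, Kyat1 and Kyat3, had log2 fold changes of -0.09 and -0.10, neither with an unadjusted p-value under 0.05. Slc6a9, the glycine transporter GlyT1, was the most counted of the list and had its lowest log2 fold change, -0.18. The 8 genes of signalling downstream of the receptor had log2 fold changes from -0.23 for Nos1, the neuronal nitric oxide synthase, to -0.01 for Kalrn, with -0.13 for the most counted, Rasgrf1, and 0 of 8 had an unadjusted p-value under 0.05. Rat 10 carried the value of Nos1, at 7.53 CPM against 19.7 to 28.2 CPM in the other stimulated rats. For Rasgrf1, rats 7 and 10 were both below every sham rat, at 609 and 542 CPM. Without rat 10 the log2 fold changes of Nos1 and Rasgrf1 were -0.02 and -0.06.

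Of 4 transcription factors known to act on subunit genes, 2 had an unadjusted p-value under 0.05, beside 9.86% of all rows. All 52 partner genes together gave 9.62%. Sp1, an activator that binds GC-rich promoters including that of Grin1, was counted at 14.8, 12.8, 13.0, 14.6 and 15.0 CPM in sham rats 1 to 5 and at 15.6, 19.3, 18.2, 28.9 and 18.2 CPM in stimulated rats 6 to 10. The groups did not overlap, although rat 6 was close to sham rat 5, and the log2 fold change was 0.51 (SE 0.154, unadjusted p = 0.00522 and adjusted p = 0.396 in edgeR's quasi-likelihood test). Rest, a repressor of neuronal genes, had few counts, with a mean of 41.3 per rat, and averaged 1.53 ± 0.522 CPM (sham) and 2.59 ± 0.969 CPM (stimulated, SD, n = 5 each). Its log2 fold change was 0.74 (SE 0.301, unadjusted p = 0.0276 and adjusted p = 0.446 in the same test). Nrf1 and Sp4 had log2 fold changes of 0.38 and 0.03. None of the 4 passed adjustment.

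**Figure D4:**
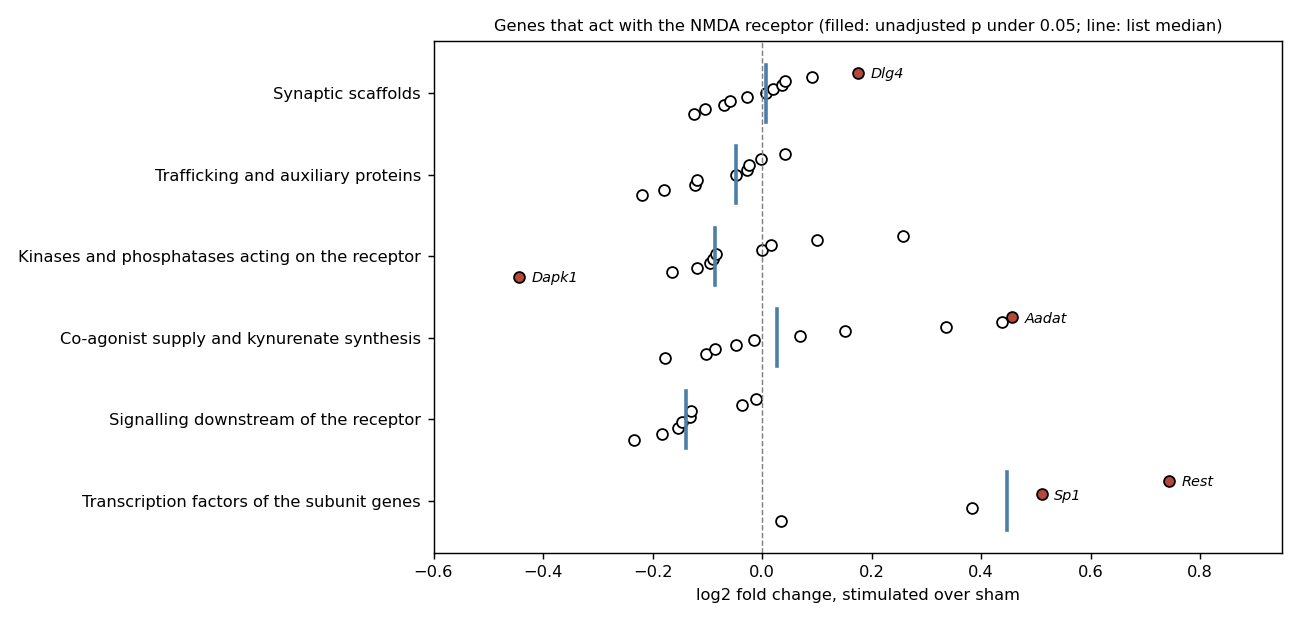
Log2 fold change of stimulated over sham rats for 52 genes that act with the NMDA receptor, one row of points per role; each point is a gene, filled points with a name have an unadjusted p-value under 0.05, and blue lines are list medians. The 5 filled points are Dlg4, Dapk1, Aadat, Sp1 and Rest, and none has an adjusted p-value under 0.05.

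Markers of cell types were counted beside these results, in 12 lists with 58 tested genes. At an unadjusted p-value under 0.05, 8 were higher and 1 was lower in stimulated rats, beside 6.7 and 3.16% of all rows, and 0 passed adjustment. The study's own list for this model holds Aqp4 and Pecam1 as upregulated, with adjusted p-values under 0.05 in its edgeR test. Among 7 general neuronal genes 0 had an unadjusted p-value under 0.05, and their sum was 3199 to 3447 CPM per sham rat and 2937 to 3526 CPM per stimulated rat, lowest in rat 10. Of 7 astrocyte genes 4 were at this level, Gfap, Aqp4, Slc1a2 and Slc1a3, and all 4 were higher in stimulated rats. The other members had log2 fold changes of -0.27 (Aldh1l1), -0.11 (Aldoc) and -0.02 (Gjb6). Summed, the list was dominated by Gfap in rats 7 and 10, with sums of 3453 to 3954 CPM per sham rat and 3423 to 8347 CPM per stimulated rat. The others with such a p-value were the endothelial genes Pecam1, Flt1 and Kdr and Chgb of the CA3 list, all higher. Neurod1, of the list for cerebellar granule cells, was lower. The other endothelial genes had log2 fold changes of 0.26 (Cldn5), 0.13 (Tek) and -0.06 (Slco1a4). The other tested CA3 genes had 0.18 (Bok) and 0.02 (Grik4). The other tested genes of the cerebellar list went the other way from Neurod1, with 0.19 (Zic1) and 1.19 (Cbln1), neither with such a p-value. Chgb was at 1519, 1034 and 1165 CPM in rats 7, 9 and 10, the rats with high Fos, and at 694 to 907 CPM in the other rats. CA1 markers summed to 167 to 290 CPM per sham rat and 98.1 to 343 CPM per stimulated rat. The sum was lowest in rat 10 and highest in rat 6, the rats with the lowest and the highest ratio of Grin2a to Grin2b. The rats between did not keep that order. Rat 7, whose ratio was above all sham rats, had 180 CPM, and rats 8 and 9, below all sham rats, had 193 and 201 CPM. Dentate granule cell markers summed to 163 to 201 CPM per sham rat, and in stimulated rats from 71.8 CPM in rat 7 to 259 CPM in rat 9. Of the 4 genes listed only 2 were tested, C1ql2 and Prox1, and C1ql2 made up most of the sum. In rat 7 C1ql2 was at 44.8 CPM, against 140 to 165 CPM in sham rats. Prox1 was at 27.0 CPM in that rat, within the sham range of 22.3 to 35.9 CPM. In rat 9 both were above all sham rats, at 207 and 52.0 CPM. The part of these cell types in the values of the subunit genes was not tested.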

How the data were processed

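The deposited file holds raw counts, whole numbers of reads per RefSeq transcript row and rat. According to the methods of the study, the authors sequenced single reads of 36 cycles, aligned them to the RN4 rat genome with BWA 0.5.9 and counted them with their own script on an Ensembl annotation. Use of strand and treatment of shared reads were not given in the sources used here. Unaligned reads, given as a separate row, did not enter library sizes. Its share per rat has 95% Wilson intervals narrower than 0.05 percentage points, which cover counting error alone. Symbols came from the RefSeq table of GRCr8, for names alone, and 12970 tested rows had one. Coordinates were not used because the builds differ.

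Groups followed the treatment label, and columns were matched by rat number. The study's methods count 4 stimulated rats where the labels give 5, so all were used and each was left out in turn. Each library came from 1 animal. Following the study, rows with a summed count below the 30th percentile (46 counts) were left out. Genes were tested in R 4.3.3 with edgeR 4.0.16, by its quasi-likelihood test (package defaults, TMM scaling, no covariate, Benjamini-Hochberg adjustment over all 22447 rows). SE is the log2 fold change divided by the root of the F statistic, and intervals are 95%. CPM used TMM-scaled library sizes, with a prior count of 2 for log2 CPM. The script was tested on simulated data. The Grin2a to Grin2b ratio used an exact permutation test (scipy 1.17.1) and correlations used 100000 permutations. Alternatives were other scalings and filters, DESeq2 1.42.0, the likelihood ratio and exact tests of edgeR, limma-voom (limma 3.58.1), robust and adjusted quasi-likelihood settings, summed rows of a gene and the omission of each rat.

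The members, the lists of partner and marker genes and the tests were chosen with earlier results of these data known. Of each role list the text names the most counted gene, the highest and lowest log2 fold changes and the rows with an unadjusted p-value under 0.05. Protein sequences of the subunits were not used here.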

Additional observations from a re-analysis of the deposited data

Results flagged for a closer look

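For 78 sets of 5 rats, the distance of the highest or lowest rat from the next one was taken as a share of the full range and set against 0.71, the limit by Dixon for that size. The sets were the subunit genes, the Grin2a to Grin2b ratio, Fos, the unaligned share, the named partner genes and the marker sums. It was exceeded in 1 group, where 3.9 are expected by chance, at about 1 in 20 groups. Sp1 in stimulated rats had a gap of 0.718 of the range, with 28.9 CPM in rat 9 and 15.6 to 19.3 CPM in the other stimulated rats. None of the 7 subunit genes and neither group of the ratio exceeded the value.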

How the results depend on the processing

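The count of subunit genes and of partner genes with an adjusted p-value under 0.05 was 0 in all 23 alternatives, and the lowest adjusted p-value of a subunit gene in any of them was 0.364, for Grin2b without stimulated rat 6. All tested rows gave 0 at this threshold except with DESeq2 (33), the likelihood ratio test (119) and edgeR's exact test (89), none of them a subunit gene. The study's own edgeR test also listed genes of this model with an adjusted p-value under 0.05. The cause of these differences was not tested. Partner genes at an unadjusted p-value under 0.05 numbered from 2 (without sham rat 2 or stimulated rat 7) to 11 (without stimulated rat 8) when a rat was left out, with 3 without sham rat 3, sham rat 5 or stimulated rat 10 and 9 without stimulated rat 6, beside 5 with all rats. In the same fits all rows numbered 1657 (without stimulated rat 7) to 3145 (without stimulated rat 6), beside 2214.

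Of 161 values of subunit log2 fold changes, 129 kept their sign and 32 did not, none of them called. Directions near 0 carry no call. Grin2b was positive in all 23 alternatives. With library size alone Grin1 was 0.019 and Grin2c 0.0012. With upper quartile factors Grin2a was -0.018 and Grin3b -0.012. With limma-voom they were -0.0039 and -0.032, with adjusted deviances Grin3b was -0.011, and with all rows summed Grin1 was 0.0056. Leaving out each rat gave -0.052 to 0.027 for Grin1, -0.071 to 0.13 for Grin2a, -0.19 to 0.054 for Grin2c, -0.17 to 0.11 for Grin2d, -0.46 to -0.01 for Grin3a and -0.12 to 0.15 for Grin3b, and -0.35 to -0.07 for the difference of the Grin2a to Grin2b log2 ratio.

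An alternative chosen after seeing the data kept the 7 rats with under 40% of reads unaligned, all sham rats and stimulated rats 6 and 7. Log2 fold changes were 0.13 for Grin2d, 0.17 for Grin3a, -0.28 for Grin3b, 0.22 for Grin2a and -0.31 for Grin2c. The ratio difference was 0.20, whose sign the choice of rats fixes. The subunit values follow in part from that choice as well. It left out rats 8 and 10, the lowest for Grin2a, Grin2d and Grin3a and among the high rats for Grin3b. Rat 10 was also the highest for Grin2c. In this fit 9 partner genes had an unadjusted p-value under 0.05 (17.3%, beside 11.2% of all rows). Levels stayed within 1 SD in all 182 alternatives. No paired analysis was possible because each rat has a number of its own and the groups share none. Grin3a and Rest had the fewest counts of the genes named, with means of 38.1 and 41.3.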
